A study of Mus musculus with 6 samples.

Results

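Skin that had received thymic stromal lymphopoietin (TSLP) from an implanted pump was set against skin that had received phosphate-buffered saline (PBS), each taken at the pump outlet. The pair was chosen by the sample labels and makes up 2 of the 6 arrays of the study, with 1 array on each side. The animals were C57BL/6 mice, each with a pump under the skin for 7 days. The pumps released TSLP, transforming growth factor beta (TGF-beta), interleukin 13 (IL-13) or, as the control, PBS. TGF-beta skin was represented by 2 arrays, from mouse 1 and mouse 2, and IL-13 skin by 1 array. A further PBS array came from skin far from the pump (distal skin). Age, sex, dose and whether RNA of several animals was pooled are not given in the sources used here. Total RNA was measured on single-colour Affymetrix arrays, and the arrays resolved 12393 genes, of which 7614 reached a signal of 165 (the median of all values) on the TSLP or the PBS outlet array and entered the comparison.

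TSLP is a cytokine that epithelial cells release on injury, infection or allergen contact. It binds a receptor made of the chains Crlf2 and Il7r, which signals through the kinases Jak1 and Jak2 to the transcription factor Stat5. In skin it is best known for activating dendritic cells, which then attract T helper 2 (Th2) cells and drive type 2 inflammation, as in atopic dermatitis.

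With 1 array a side, the difference between TSLP and PBS skin has no replicate error of its own, and the differences compare these specimens. The arrays of the TGF-beta mice, treated alike, show how far a gene can move between animals, and their values stand beside most of the genes described. All differences are in log2(signal + 27.4), a scale that understates the change of dim genes, and a difference of 1 or more in size (2-fold) was called higher or lower. The arrays were alike in overall brightness, with median signals of 160 to 171, and in the 3'/5' ratio of Actb, which ran from 1.13 to 1.25. The array of TGF-beta mouse 2 stood apart in hair genes, the 24 hair follicle and keratin-associated genes summing to 58947 signal units there, against 1607 in TGF-beta mouse 1, 1961 under TSLP and 1704 in PBS skin. Krt14, the keratin of basal epidermis, had a signal of 5886 under TSLP, 7729 and 6602 in TGF-beta mice 1 and 2, and 8346 in PBS skin. Krt10, of the upper layers, had 12656 under TSLP, 18937 and 15179.9 in the TGF-beta mice and 14570.0 in PBS skin. Both pieces also held RNA of skeletal muscle, the muscle actin Acta1 having a signal of 11674 under TSLP, 18494 and 14745 in the TGF-beta mice and 14126 in PBS skin. In bulk tissue of this kind, fewer cells of a type and less RNA per cell cannot be told apart.

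Most genes had like signals in both pieces. Of the 7614 genes, 7005 (92.0%) differed by less than 0.5, and the SD of the differences over genes was 0.321, against 0.342 between the TGF-beta mice. Under TSLP 76 genes were at least 2-fold higher (0.998% of those compared) and 34 at least 2-fold lower (0.447%). Of these, 10 were more than 4-fold higher and 3 more than 4-fold lower. For scale, 112 of the 7614 genes (1.47%) were as far apart between the TGF-beta mice, among them 24 of the 76 higher and 5 of the 34 lower genes. The filter used the TSLP and PBS outlet arrays, so genes bright only in a TGF-beta mouse were left out. Of the 24 hair genes 2 were compared. The SD and the count for the TGF-beta mice may thus understate how far those mice were apart. A stricter call asked that a gene differ at least 2-fold, in the same direction, from the PBS outlet array and from both TGF-beta arrays. It kept 23 genes higher under TSLP (0.302%) and 6 lower (0.0788%). These 3 contrasts share the TSLP array, so the stricter call does not check that array. The scatter of all genes shows where the called genes lie.

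**Figure D1:**
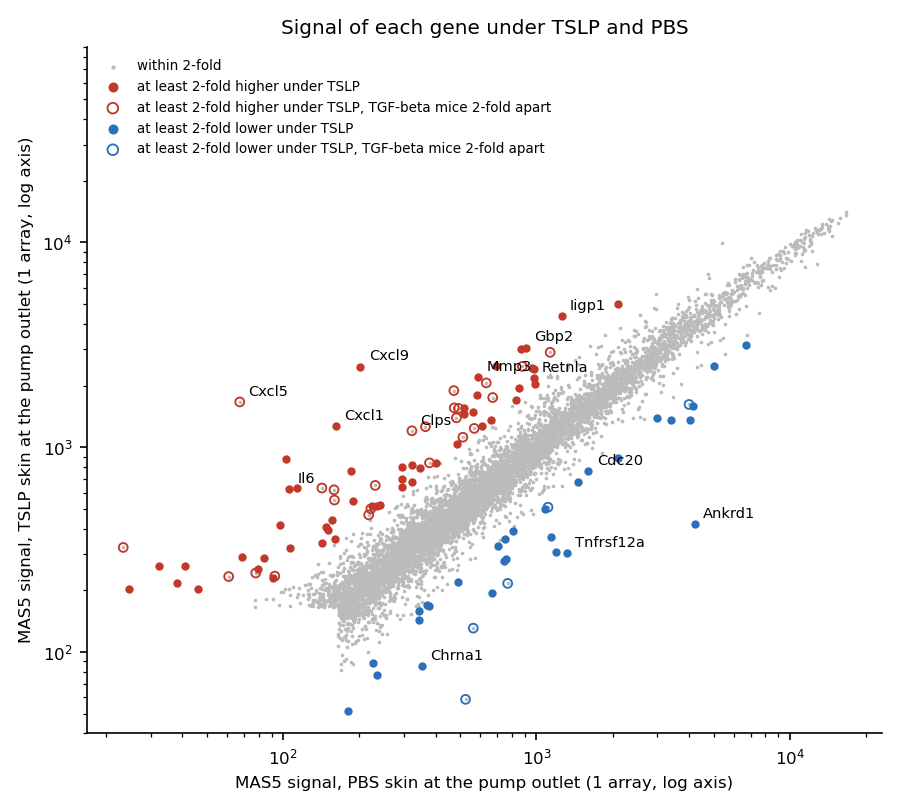
MAS5 signal of each of the 7614 genes under TSLP (vertical, log axis) against PBS skin at the outlet (horizontal, log axis), 1 array each. Red points are the 76 genes at least 2-fold higher under TSLP and blue points the 34 at least 2-fold lower, and open circles mark genes that the TGF-beta mice set 2-fold apart. Cxcl9 and Cxcl1 stand far above the diagonal, Ankrd1 far below it, and most grey points lie close to it.

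Many of the genes highest under TSLP were genes that interferons induce or that call in neutrophils. Of the 76 higher genes, 17 belonged to the lists of interferon-induced or antigen-presentation genes, which held 68 compared genes, and 10 of the 23 genes of the stricter call were among them. Of the 68, 62 had a difference above 0, where 48.7% of all compared genes did, and 0 were 2-fold lower. The lists were written with earlier results of these arrays known, so these counts describe the pair of specimens and are not independent evidence.

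The promoters of 5 of these genes, whose transcripts are among those that set the 2 pieces apart, are printed. All 5 hold a match to a motif named below. The window of Cxcl9 was searched too, held no match and is not printed, so the printed set does not show how common matches are. Each printed promoter is the RefSeq window of 300 bases (250 before the start of transcription and 50 after it) on the build GRCm38.p6, read along the gene's own strand. Capitals mark matches, on either strand, to 3 motifs. They are the interferon-stimulated response element (GAAA and GAAA parted by any 2 bases), the STAT-binding GAS element (TTC and GAA parted by any 3 bases) and the NF-kB element (GGG and TTCC parted by any 3 bases). In the Cxcl1 and Cxcl2 windows one NF-kB stretch matches on both strands, 1 base apart, and is written as a single run of capitals.
Gbp2, chr3:142620413-142620712, plus strand: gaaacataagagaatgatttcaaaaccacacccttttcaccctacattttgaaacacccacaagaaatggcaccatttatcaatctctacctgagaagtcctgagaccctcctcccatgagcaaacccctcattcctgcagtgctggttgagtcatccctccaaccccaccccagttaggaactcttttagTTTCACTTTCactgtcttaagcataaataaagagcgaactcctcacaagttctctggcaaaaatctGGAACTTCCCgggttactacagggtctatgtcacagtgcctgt
Igtp, chr11:58199306-58199605, plus strand: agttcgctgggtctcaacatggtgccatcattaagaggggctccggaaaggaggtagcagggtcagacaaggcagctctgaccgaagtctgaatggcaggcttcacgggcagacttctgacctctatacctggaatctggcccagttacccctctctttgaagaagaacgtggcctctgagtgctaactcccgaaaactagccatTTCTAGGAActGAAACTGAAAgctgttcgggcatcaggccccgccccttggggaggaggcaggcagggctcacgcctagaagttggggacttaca
Cxcl10, chr5:92348840-92349139, minus strand: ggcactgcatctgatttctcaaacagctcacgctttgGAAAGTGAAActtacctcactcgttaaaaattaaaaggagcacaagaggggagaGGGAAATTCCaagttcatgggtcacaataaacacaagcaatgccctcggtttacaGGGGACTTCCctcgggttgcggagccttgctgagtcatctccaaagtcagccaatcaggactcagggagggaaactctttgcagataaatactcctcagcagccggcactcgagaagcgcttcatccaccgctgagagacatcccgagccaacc
Cxcl1, chr5:90890995-90891294, plus strand: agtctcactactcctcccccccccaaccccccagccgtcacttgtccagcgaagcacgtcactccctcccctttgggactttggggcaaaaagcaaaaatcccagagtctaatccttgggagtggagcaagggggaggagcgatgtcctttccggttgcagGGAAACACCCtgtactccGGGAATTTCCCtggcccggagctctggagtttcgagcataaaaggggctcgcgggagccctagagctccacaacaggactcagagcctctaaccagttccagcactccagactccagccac
Cxcl2, chr5:90903649-90903948, plus strand: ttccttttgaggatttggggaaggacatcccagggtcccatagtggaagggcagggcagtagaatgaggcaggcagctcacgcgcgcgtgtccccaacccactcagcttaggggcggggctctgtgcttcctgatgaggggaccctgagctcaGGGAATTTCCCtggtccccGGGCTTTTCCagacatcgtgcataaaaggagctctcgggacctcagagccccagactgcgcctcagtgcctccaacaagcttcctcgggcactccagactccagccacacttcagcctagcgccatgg

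The interferon element lay 59 bases before the start in Gbp2, 34 bases before it in Igtp and 213 bases before it in Cxcl10. Igtp also held a GAS element 45 bases before the start. NF-kB elements lay 159 and 104 bases before the start in Cxcl10, 89, 71 and 70 bases before it in Cxcl1, 97, 96 and 78 bases before it in Cxcl2, and 7 bases after it in Gbp2. Of the 27025 genes with at least 1 window in the table, 3.99% held an interferon element in any of their windows, 9.55% a GAS element and 6.31% an NF-kB element. Windows were found for 7 genes of the guanylate-binding and immunity-related GTPase list, of which 6 held an interferon element, 3 a GAS element and 1 an NF-kB element. Of 4 genes of the CXC chemokine list with a window (Cxcl1, Cxcl2, Ppbp and Pf4), 2 held an NF-kB element and 0 an interferon element. Of the 23 genes of the stricter call, 18 had a window, and of these 5 held an interferon element, 2 a GAS element and 7 an NF-kB element. The window of Cxcl9 held none of the 3. A match describes letters and is not a binding site.

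The guanylate-binding proteins and immunity-related GTPases, which interferon-gamma induces and which attack the vacuoles of intracellular microbes, were higher as a family. Of 10 compared members, 9 passed 2-fold, all higher, and the median difference was 1.63, where the median of all compared genes was -0.01. The same list had medians of 0.32 in TGF-beta mouse 1 and 0.03 in mouse 2 against the same PBS array. Iigp1 had a signal of 4346 under TSLP, 1497 and 1339.8 in TGF-beta mice 1 and 2, and 1258 in PBS skin. Gbp2 had a signal of 3063 under TSLP, 843 and 825 in the TGF-beta mice and 908 in PBS skin. Igtp had a signal of 3017 under TSLP, 896 and 675 in the TGF-beta mice and 865 in PBS skin. In each, the TSLP array alone was high and the other 3 lay close together. The largest difference of the family was that of Gbp8, at 2.23, whose signal was 632 under TSLP and 113 in PBS skin, with 194 and 153 in the TGF-beta mice. Gbp6 differed by 1.83, with 0.42 and 0.17 in the TGF-beta mice, Irgm2 by 1.53 (0.32 and -0.02) and Gbp3 by 1.43 (0.54 and 0.30). Gbp7 differed by 1.28 (0.61 and 0.13), Ifi47 by 1.17 (0.32 and -0.02) and Irgm1, the member under 2-fold, by 0.72 (-0.19 and -0.26). All 10 had a higher signal under TSLP than on each of the PBS and TGF-beta outlet arrays, which 29.6% of compared genes had, and 6 of the 10 met the stricter call. Gbp2b, below the filter, had a signal of 153 under TSLP, 22.2 and 16.8 in the TGF-beta mice and 17.1 in PBS skin.

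Of the ligands of the T cell receptor Cxcr3, Cxcl9 showed the second largest difference of all genes. Its signal was 2473 under TSLP, 349 and 212 in TGF-beta mice 1 and 2, and 202 in PBS skin, a difference of 3.45 (10.9-fold). Cxcl10 had a signal of 766 under TSLP, 314 and 223 in the TGF-beta mice and 185 in PBS skin, a difference of 1.90. Both were more than 2-fold above the PBS outlet array and each TGF-beta array. Under IL-13 the signals of Cxcl9 and Cxcl10 were 332 and 501, so Cxcl10 was within 2-fold of TSLP there. Cxcl11 stayed below the filter, with 77.2 under TSLP, 27.3 and 25.5 in the TGF-beta mice and 28 in PBS skin. The receptor gene Cxcr3 differed by 0.31, with -0.03 and -0.04 in the TGF-beta mice. Ifng, the gene of interferon-gamma itself, was below the filter, with signals of 30.2 under TSLP, 18 and 17.2 in the TGF-beta mice and 9.3 in PBS skin.

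Further genes that interferon-gamma induces were higher. Ubd, a ubiquitin-like modifier, had a signal of 264 under TSLP, 56.8 and 23.6 in TGF-beta mice 1 and 2, and 41.1 in PBS skin. Cd274, the checkpoint ligand PD-L1, had a signal of 409 under TSLP, 156 and 149 in the TGF-beta mice and 148 in PBS skin. Irf1, a transcription factor of the response, had a signal of 1360.3 under TSLP, 703 and 659 in the TGF-beta mice and 662 in PBS skin, a difference of 1.01. Of the 10 compared genes of the interferon-gamma list, 3 were 2-fold higher and 10 lay above all 3 other arrays, with a median of 0.43. Type I interferon-stimulated genes were mostly above PBS skin, few of them by 2-fold. Of 29 compared, 3 were 2-fold higher (Ifit2 at 1.27, Irf7 and Ifit3 both at 1.04), 28 had a difference above 0 and the median was 0.55. Ifit2 was also higher by 0.71 and 0.63 in the TGF-beta mice, Ifit3 by 0.64 and 0.29, and Irf7 by 0.05 and 0.16.

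Of 16 compared antigen-presentation genes, 0 were 2-fold higher and 11 had a difference above 0 (median 0.20). The catalytic immunoproteasome subunit Psmb9 had a signal of 1577 under TSLP, 965 and 979 in TGF-beta mice 1 and 2, and 962 in PBS skin. H2-DMa, which helps load class II molecules, had a signal of 1741 under TSLP, 988 and 862 in the TGF-beta mice and 1032 in PBS skin. The peptide transporter gene Tap1 differed by 0.53, with -0.20 and 0.03 in the TGF-beta mice, while Tap2 differed by -0.11. The class I genes H2-K1 and B2m differed by -0.01 and -0.09, with 0.19 and 0.34 in TGF-beta mouse 1 and 0.02 and 0.27 in mouse 2. The class II gene H2-Aa differed by -0.09 (0.21 and 0.12 in the TGF-beta mice). Ciita, the class II transactivator, which is on the interferon-gamma list, differed by 0.61 (-0.17 and -0.38).

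The chemokines that attract neutrophils through the receptor Cxcr2 were the other leading group. Of 5 compared genes of their list, which also holds the platelet chemokine Pf4 (at 0.16), 3 were at least 2-fold higher. Cxcl1 had a signal of 1272 under TSLP, 223 and 176 in TGF-beta mice 1 and 2, and 162 in PBS skin, a difference of 2.78. Cxcl2 had a signal of 879 under TSLP, 306 and 244 in the TGF-beta mice and 102 in PBS skin, a difference of 2.80, so TGF-beta skin lay between. Cxcl5 had the largest difference of all genes, 4.15, with a signal of 1662 under TSLP and 67.4 in PBS skin. It was also the least steady of the 3, with signals of 1036 in TGF-beta mouse 1 and 334 in mouse 2. Cxcl1 and Cxcl2 met the stricter call and Cxcl5 did not. Under IL-13 the signals of Cxcl1, Cxcl2 and Cxcl5 were 1219, 1051 and 1883. The receptor gene Cxcr2 was below the filter on both arrays, at 27.5 under TSLP, 60.6 and 35.2 in the TGF-beta mice and 35.1 in PBS skin.

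Inflammatory mediators of macrophages and stromal cells accompanied them. Il6, the inducer of the acute phase response, had a signal of 624 under TSLP, 159.7 and 121 in TGF-beta mice 1 and 2, and 106 in PBS skin. Acod1, the itaconate-producing enzyme of activated macrophages, had a signal of 202 under TSLP, 56.4 and 40.3 in the TGF-beta mice and 24.7 in PBS skin. Ccl5, which attracts T cells and monocytes, had a signal of 803 under TSLP, 339.5 and 337 in the TGF-beta mice and 295 in PBS skin. Il6, Acod1 and Ccl5 met the stricter call, which does not use the IL-13 array, and under IL-13 their signals were 477, 262 and 384. They were the 3 genes 2-fold higher of 16 compared on their list. Il1b differed by 0.82, with -0.48 and -0.27 in the TGF-beta mice, Ccl2 by 0.67 (-0.46 and -1.08) and the monocyte chemokine Ccl7 by 0.13 (-1.09 and -1.14). Ptgs2, the inducible prostaglandin synthase, did not exceed the filter, with 165 under TSLP, 73.4 and 70.4 in the TGF-beta mice and 49.0 in PBS skin. Csf3, the granulocyte growth factor gene, had 112 under TSLP, 27.4 and 34.1 in the TGF-beta mice and 26.5 in PBS skin. Tnf was below the filter, with 68.1 under TSLP, 39.3 and 5.62 in the TGF-beta mice and 75.5 in PBS skin. Of 10 acute phase genes, 5 had a difference above 0, and Crp, at 51.5 under TSLP and 180.0 in PBS skin, was 2-fold lower. Crp was as low in the TGF-beta mice, at 36.7 and 69.2. The plot of chemokine, interferon-induced and inflammatory genes gives each value by array.

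**Figure D2:**
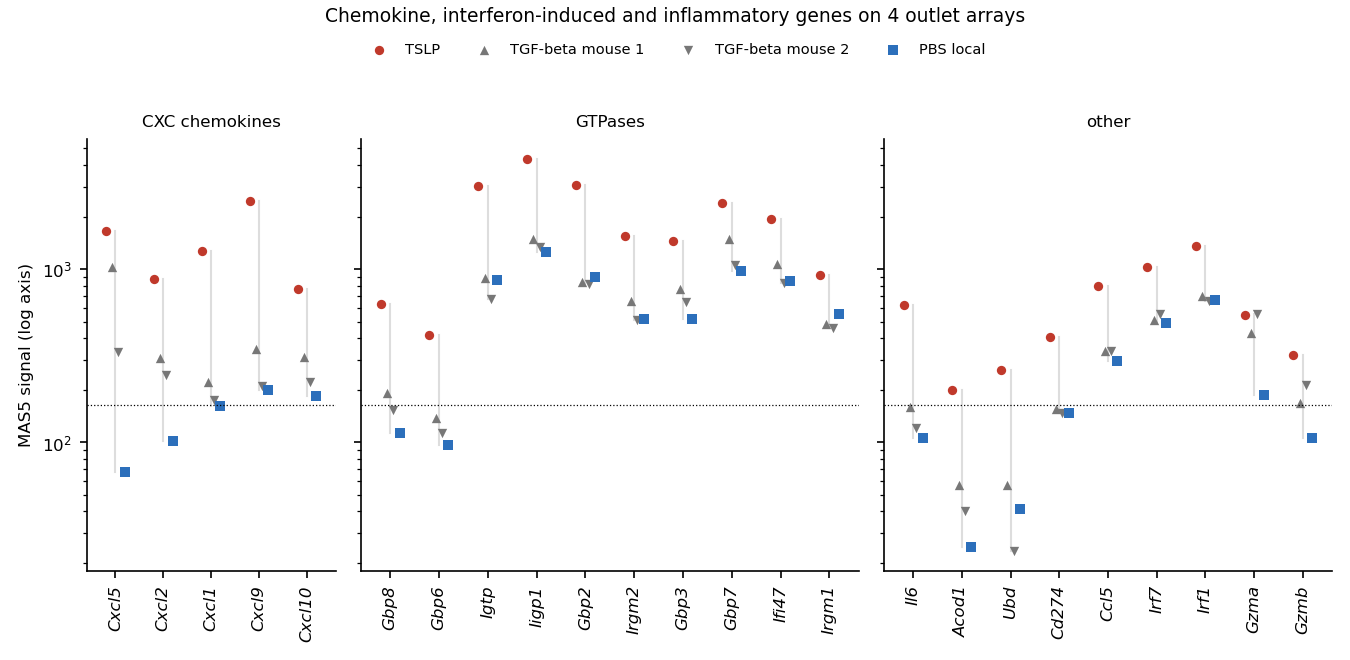
MAS5 signal (log axis) of CXC chemokines, GTPases and other interferon-induced, inflammatory and cytotoxic genes on 4 outlet arrays, from left to right for each gene TSLP, TGF-beta mouse 1, TGF-beta mouse 2 and PBS. The dotted line is the filter at 165 and grey bars span the 4 values. The TSLP point is the highest for every gene shown but Gzma, at 549 under TSLP and 549.6 in TGF-beta mouse 2, while Cxcl5 spreads widely between the TGF-beta mice.

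Markers of neutrophils and of T and natural killer cells leaned higher. Of 11 neutrophil markers 1 was 2-fold higher and 8 had a difference above 0 (median 0.60). Clec4d, a C-type lectin of myeloid cells, had a signal of 1789 under TSLP and 582 in PBS skin. TGF-beta mice 1 and 2 had 1522 and 1314. With 2073 under IL-13 and 49.4 in distal PBS skin, both PBS arrays were low. Csf3r, the granulocyte growth factor receptor gene, differed by 0.63, with 0.27 and 0.15 in the TGF-beta mice, and S100a9, a calprotectin subunit, by 0.87 (0.70 and 0.17). The other calprotectin subunit, S100a8, differed by 0.25 (0.81 and 1.04), so both TGF-beta mice lay above TSLP skin. The granule gene Ngp differed by -0.50 (-0.67 and -1.82). Of 9 markers of T and natural killer cells 3 were 2-fold higher (median 0.49), namely Ccl5 and the granzymes. Of the 9, 7 had a difference above 0 and 2 below 0, the lowest at -0.56. The cytotoxic granule gene Gzmb had a signal of 321 under TSLP, 169 and 215 in the TGF-beta mice and 106 in PBS skin. Gzma had a signal of 549 under TSLP, 429 and 549.6 in the TGF-beta mice and 189 in PBS skin. The T cell gene Cd3g differed by 0.18 (-0.19 and 0.06 in the TGF-beta mice), and Cd3e, below the filter, by -0.37 (-0.90 and -0.38). Cd8a was below the filter, at 34.4 under TSLP, 47.7 and 10.2 in the TGF-beta mice and 35.9 in PBS skin, and so was Cd4, at 17.5 under TSLP, 11.2 and 51.8 in the TGF-beta mice and 18.5 in PBS skin. Of 22 macrophage markers 0 were 2-fold apart and 16 had a difference above 0, in a range of -0.78 to 0.97 (median 0.19). Cd14, the highest, had a signal of 1591 under TSLP, 857 and 669 in the TGF-beta mice and 798 in PBS skin. Cd68 had 2816 under TSLP, 2864 and 2751 in the TGF-beta mice and 2813 in PBS skin. Adgre1 had 1706 under TSLP, 1408 and 1409 in the TGF-beta mice and 1365 in PBS skin. Of 7 B and plasma cell markers 1 had a difference above 0 (median -0.13). Of 8 mast cell markers 4 had a difference above 0 and 4 below 0 (median -0.02). The mast cell protease genes Cpa3, Mcpt4 and Cma1 differed by -0.42, -0.55 and -0.53. These 3 were also below PBS skin in TGF-beta mouse 1 (-0.46, -0.69 and -0.49) and mouse 2 (-0.27, -0.46 and -0.10). Erythroid genes were below PBS skin in 5 of 5 cases, with a median of -0.66, and of -0.68 and -0.96 in the TGF-beta mice. The 8 eosinophil markers all lay below the filter and summed to 143 signal units under TSLP and 107 in PBS skin.

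The TSLP receptor chains and their signalling genes were not 2-fold apart. Crlf2 had a signal of 1479 under TSLP, 1085 and 993 in TGF-beta mice 1 and 2, and 1252 in PBS skin. Il7r had a signal of 324 under TSLP, 201 and 143 in the TGF-beta mice and 232 in PBS skin. Both were highest under TSLP, by 0.24 and 0.44 over PBS skin. The endogenous Tslp gene was below the filter in the pair, with 115 under TSLP, 189 and 174 in the TGF-beta mice and 146 in PBS skin. The kinase gene Jak1 differed by 0.08, with 0.02 and -0.42 in the TGF-beta mice, and Jak2 by 0.37 (-0.07 and 0.00). Stat5a differed by -0.43 (-0.63 and -0.40), Stat5b by 0.06 (-0.27 and -0.41) and Stat3 by 0.03 (-0.30 and -0.37). Of the genes that Stat5 is known to induce, the feedback inhibitor Cish had a signal of 256 under TSLP and 293 in PBS skin, with 148 and 228 in the TGF-beta mice. Socs2 had a signal of 585 under TSLP, 484 and 507 in the TGF-beta mice and 849 in PBS skin, and the kinase gene Pim1 1125 under TSLP, 941 and 809 in the TGF-beta mice and 1164 in PBS skin. The survival gene Bcl2l1 differed by 0.19 (-0.08 and 0.47 in the TGF-beta mice) and Socs3, which Stat3 also induces, by 0.34 (-0.67 and -0.43). Il7, Socs1, Bcl2 and Il2ra were below the filter, with signals of 80.2, 53.8, 60.6 and 28.4 under TSLP, 78.2, 55.4, 67.1 and 17.8 in TGF-beta mouse 1, 54.8, 42.7, 38 and 19.7 in mouse 2, and 56.2, 65.7, 38.5 and 0.905 in PBS skin. Of the 12 compared genes 8 had a difference above 0 (median 0.07).

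Of 8 compared genes of the dendritic cell and Th2 programme 0 were 2-fold apart (median 0.26), but the gene of that list with the largest difference was too dim to be compared. Ccl17, the Th2-attracting chemokine, had a signal of 129 under TSLP, 49.3 and 51.4 in TGF-beta mice 1 and 2, and 33.2 in PBS skin, all below the filter, which is a difference of 1.37. Its companion Ccl22 had 92.6 under TSLP, 34.3 and 31.6 in the TGF-beta mice and 66.1 in PBS skin. Il4, Il5 and Il13 had signals of 21.4, 8.31 and 1.99 under TSLP, 2.47, 1.55 and 2.05 in TGF-beta mouse 1, 4.06, 8.6 and 2.27 in mouse 2, and 19.7, 8.08 and 3.36 in PBS skin. The costimulatory molecules of dendritic cells Cd40 and Cd86 differed by 0.51 (-0.11 and -0.17 in the TGF-beta mice) and 0.30 (-0.19 and -0.37), and the Langerhans cell lectin Cd207 by 0.38 (-0.66 and -0.84). Il33, an alarmin of stromal and epithelial cells, had a signal of 2193 under TSLP, 1519 and 1585 in the TGF-beta mice and 1478 in PBS skin. The eosinophil chemokine Ccl11 differed by 0.40 (0.03 and -0.26 in the TGF-beta mice). Dendritic and Langerhans cell markers, 0 of 8 of which were 2-fold apart, had a median of 0.29, against -0.33 and -0.43 in the TGF-beta mice.

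Alternative activation genes, which IL-4 and IL-13 induce in macrophages, gave a mixed result. Of 14 compared, 3 were 2-fold higher and 8 had a difference above 0 (median 0.23). Retnla, a secreted protein of such macrophages and of fat, had a signal of 2167 under TSLP, 595 and 367 in TGF-beta mice 1 and 2, and 975 in PBS skin, but 9075 in distal PBS skin. Clec7a, the beta-glucan receptor, had a signal of 793 under TSLP, 477 and 298 in the TGF-beta mice and 346 in PBS skin. Arg1 had a signal of 1556 under TSLP and 474 in PBS skin, but 1880.3 in TGF-beta mouse 1 and 729.8 in mouse 2, so TSLP skin lay between the TGF-beta mice. Chil3 had a signal of 854 under TSLP, 4175 under IL-13, 547 and 332 in the TGF-beta mice and 1125 in PBS skin. The IL-13 decoy receptor Il13ra2 had a signal of 182 under TSLP, 468 under IL-13, 170.0 and 84.6 in the TGF-beta mice and 91.5 in PBS skin.

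Matrix proteases were among the higher genes. Mmp12, the macrophage elastase, had a signal of 324 under TSLP, 139 and 53 in TGF-beta mice 1 and 2, and 23.4 in PBS skin, a difference of 2.79. It met the stricter call, although the TGF-beta mice were themselves more than 2-fold apart and its signal under IL-13 was 731. Mmp3, stromelysin, had a signal of 2203 under TSLP, 2431 and 2252 in the TGF-beta mice and 589.8 in PBS skin. Sfrp2, a secreted Wnt regulator, had a signal of 1889 under TSLP, 2743 and 1319.7 in the TGF-beta mice and 472 in PBS skin. For Mmp3 and Sfrp2 both PBS arrays were low, with 435 and 240 in distal skin, while IL-13 skin had 1526 and 1338. The protease inhibitor Timp1 differed by 0.90 (1.02 and 0.58 in the TGF-beta mice). Collagens were lower on balance, 4 of 20 having a difference above 0, with a median of -0.22, against 0.25 and 0.01 in the TGF-beta mice. Col8a1, of vessel walls, had a signal of 358 under TSLP, 1022 and 623 in the TGF-beta mice and 754 in PBS skin. Col15a1, of basement membranes, had 167 under TSLP, 219.7 and 196 in the TGF-beta mice and 375 in PBS skin. Col1a1 had a signal of 4383 under TSLP, 6806 and 6168 in the TGF-beta mice and 5744 in PBS skin. Of the 20 collagens 14 lay below all 3 other arrays, where 20.7% of compared genes did.

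A group of the lower genes are skeletal muscle genes by the lists used here, and their cell source in these pieces was not tested. Of the 34 lower genes 11 belonged to the muscle lists, and 5 of the 6 lower genes of the stricter call did. Of all compared genes 0.447% and 0.0788% met these calls. The lists held 10 compared stress, 13 regenerating and 24 mature fibre genes, of which 6, 4 and 1 were 2-fold lower. They too were written with earlier results of these arrays known. Ankrd1, a nuclear protein that striated muscle makes on stretch or injury, had a signal of 421 under TSLP, 3079 and 2431 in TGF-beta mice 1 and 2, and 4227 in PBS skin, a difference of -3.25. Tnfrsf12a, the receptor for TWEAK that injured muscle makes, had a signal of 305 under TSLP, 1077 and 705 in the TGF-beta mice and 1320.3 in PBS skin. In both, the 3 other arrays lay at least 2-fold above TSLP. Xirp1, of muscle adhesion sites, had a signal of 306 under TSLP, 835 and 496 in the TGF-beta mice and 1199 in PBS skin, so that TGF-beta mouse 2 came within 2-fold. Of the 10 muscle stress genes 6 were 2-fold lower and 10 had a difference below 0, which 51.3% of all compared genes had. Their median was -1.30, and it was -0.41 and -1.19 in the TGF-beta mice.

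Genes of regenerating muscle were lower under TSLP, too. Of 13 compared, 4 were 2-fold lower, 13 had a difference below 0 and 11 lay below all 3 other arrays. The median was -0.59, with 0.19 and 0.22 in the TGF-beta mice. Chrna1, a subunit of the muscle acetylcholine receptor, had a signal of 85.3 under TSLP, 211 and 415 in the TGF-beta mice and 354 in PBS skin. Myl4, the embryonic myosin light chain, had a signal of 365 under TSLP, 1319.7 and 1888 in the TGF-beta mice and 1145 in PBS skin. Tnni1, the slow troponin I that new fibres make, had a signal of 219.7 under TSLP, 1044 and 652 in the TGF-beta mice and 492 in PBS skin. The myogenic factors Myog and Myf6 differed by -0.89 (-0.26 and -0.16 in the TGF-beta mice) and -1.07 (-0.68 and -0.80). Distal skin also had little of several of these transcripts, with Ankrd1 at 75.7, Myl4 at 134 and Tnni1 at 3.35. Under IL-13 they had 3009, 1268 and 471, so their signal was high at the outlet of the PBS, TGF-beta and IL-13 pumps. Under TSLP Ankrd1, Myl4 and Tnni1 stayed above distal skin. Chrna1, at 138 in distal skin, and the stress gene Tnfrsf12a, at 390 there, were lower under TSLP than in distal skin. Genes of mature fibres were lower by a small amount, 21 of 24 having a difference below 0, with a median of -0.24, and of -0.03 and -0.59 in the TGF-beta mice. The 1 member 2-fold lower was Actn3, at 3148 under TSLP, 4403 and 4819 in the TGF-beta mice and 6711 in PBS skin. The signals of the 25 mature fibre genes on the array summed to 161219 under TSLP and 191523 in PBS skin. The part that the muscle content of the pieces had in the lower muscle genes was not tested.

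Cell cycle genes were lower as a group, most of them by less than 2-fold. Of 27 compared, 27 had a difference below 0 and 26 lay below all 3 other arrays, while 2 were 2-fold lower. The median was -0.66, against -0.07 and 0.31 in the TGF-beta mice. Cdc20, the activator of anaphase, had a signal of 763 under TSLP, 1589.5 and 2136 in the TGF-beta mice and 1604 in PBS skin. Ube2c, its partner enzyme in cyclin destruction, had a signal of 501 under TSLP, 903 and 1106 in the TGF-beta mice and 1080.0 in PBS skin. Mki67, the proliferation marker, had a signal of 1128 under TSLP, 1594 and 2186 in the TGF-beta mice and 1792 in PBS skin. Distal skin had 1114 for Mki67 and 1217 for Cdc20. Basal and differentiated keratinocyte markers were lower in 17 of 18 cases, with a median of -0.23, and 0 of them were 2-fold apart. Of 8 genes of stressed epidermis 2 had a difference above 0 (median -0.41, against -0.26 and 0.50 in the TGF-beta mice), and the keratin gene Krt6a had a signal of 1307 under TSLP, 1491 and 2259 in the TGF-beta mice and 1852 in PBS skin. Ribosomal protein genes, among the brightest on the arrays, had a median of -0.14, against 0.37 and 0.29 in the TGF-beta mice. The plot of muscle and cell cycle genes shows these values.

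**Figure D3:**
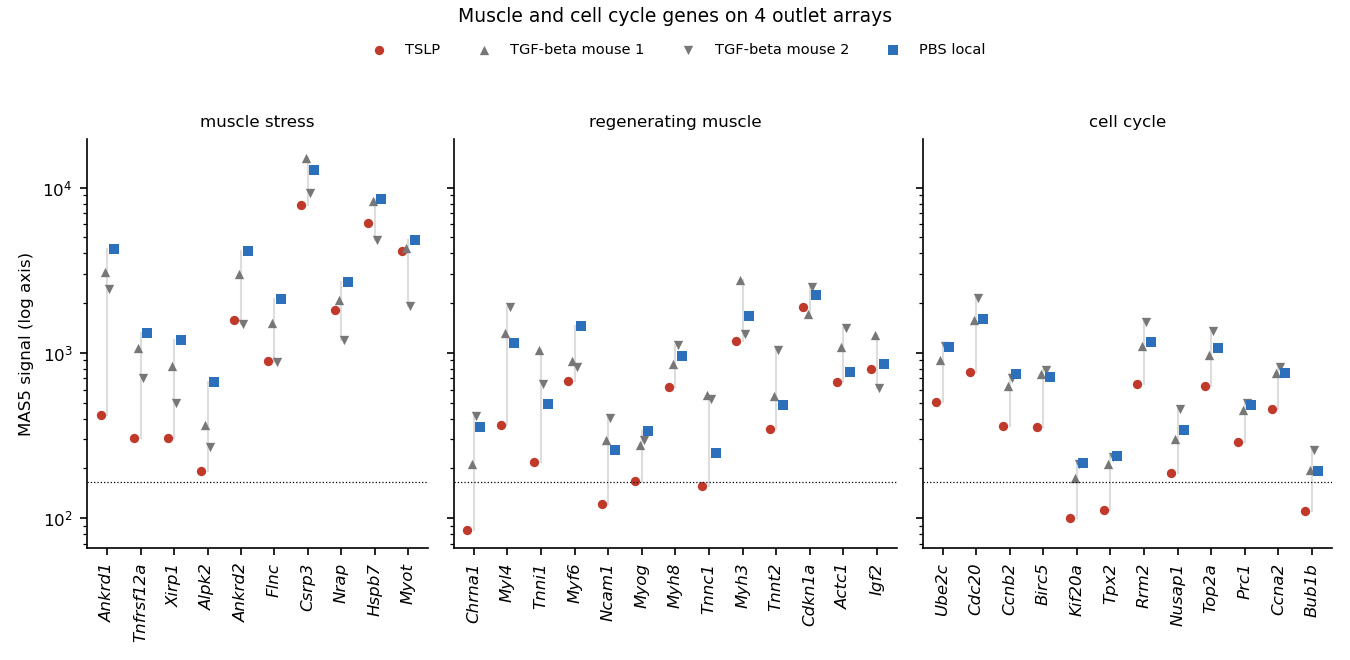
MAS5 signal (log axis) of the 10 muscle stress genes, the 13 regenerating muscle genes and the 12 lowest cell cycle genes on 4 outlet arrays, from left to right for each gene TSLP, TGF-beta mouse 1, TGF-beta mouse 2 and PBS. The dotted line is the filter at 165. Ankrd1, Tnfrsf12a, Chrna1, Myl4 and Tnni1 have the TSLP point at least 2-fold below the other 3, and each of the 12 cell cycle genes has it lowest.

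A group of 16 higher genes encodes digestive enzymes and secretory proteins of the exocrine pancreas. They make up 16 of the 17 compared members of that list, and all 16 were at least 2-fold apart between the TGF-beta mice. The lipase cofactor Clps had a signal of 1202 under TSLP, 94.9 and 926 in TGF-beta mice 1 and 2, and 322 in PBS skin. Prss2, a trypsinogen, had a signal of 1547 under TSLP, 182 and 1256 in the TGF-beta mice and 493 in PBS skin. The 22 pancreas genes on the array summed to 19245 signal units under TSLP, 2970 and 16564 in the TGF-beta mice, 22782 under IL-13 and 7025 in PBS skin. TSLP, IL-13 and TGF-beta mouse 2 were thus high together, and 0 of the 16 met the stricter call. Without all genes that the TGF-beta mice set apart, the pair had 52 higher and 29 lower genes. The part of RNA from other tissue in these transcripts was not tested.

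**Figure D4:**
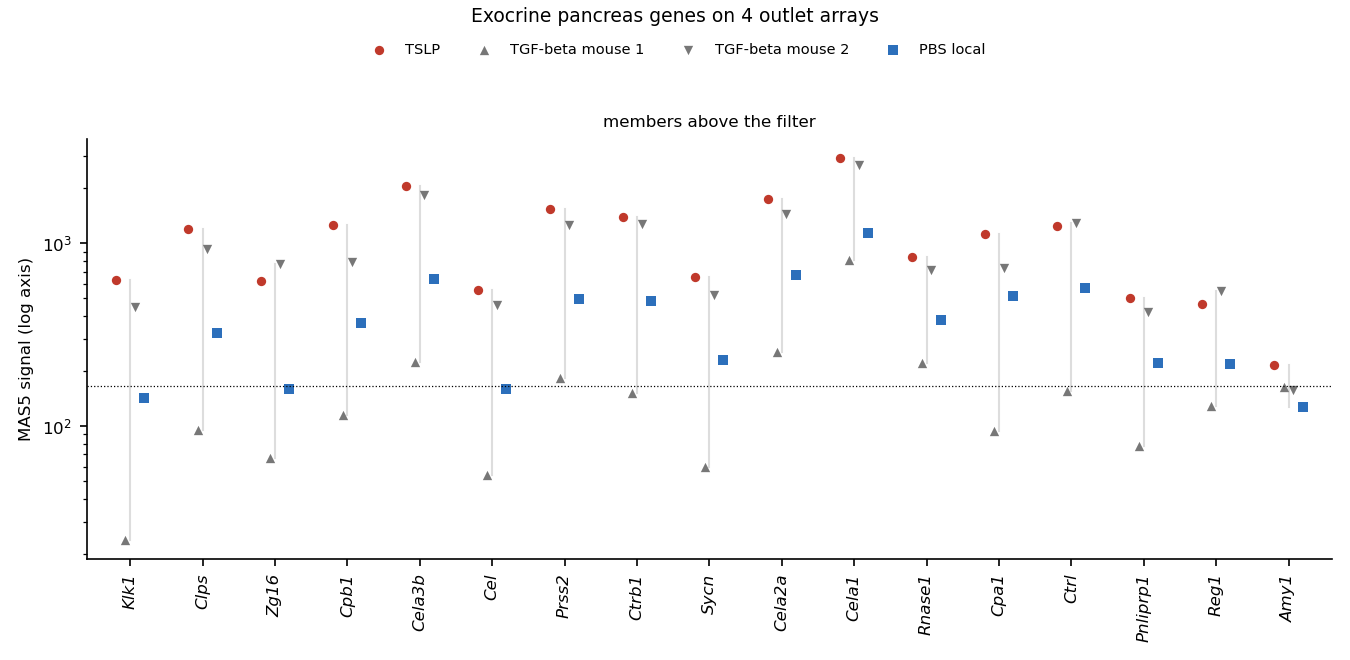
MAS5 signal (log axis) of the 17 exocrine pancreas genes compared, on 4 outlet arrays, from left to right for each gene TSLP, TGF-beta mouse 1, TGF-beta mouse 2 and PBS. The dotted line is the filter at 165. TSLP and TGF-beta mouse 2 are high together and TGF-beta mouse 1 is lowest for every gene but Amy1, the 1 member under 2-fold.

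Several higher genes of the stricter call lay outside these groups. Thrsp, a regulator of fat synthesis, had a signal of 2489 under TSLP, 1109 and 824 in TGF-beta mice 1 and 2, and 689.8 in PBS skin. Zdhhc12, a palmitoyltransferase, had a signal of 218 under TSLP, 81.5 and 70.3 in the TGF-beta mice and 38 in PBS skin. Slamf8, a surface receptor of myeloid cells, had a signal of 287 under TSLP, 102 and 98.6 in the TGF-beta mice and 83.7 in PBS skin. Grb14, an adaptor of the insulin receptor, had a signal of 354 under TSLP, 156 and 154 in the TGF-beta mice and 160.0 in PBS skin, but 321 in distal skin. Slfn1 had a signal of 228 under TSLP, 98.3 and 70.6 in the TGF-beta mice and 91.4 in PBS skin, and BC023105 had 262 under TSLP, 53.7 and 31.2 in the TGF-beta mice and 32.4 in PBS skin. Among lower genes outside the muscle and cell cycle groups, Greb1 had a signal of 58.7 under TSLP and 525 in PBS skin but 53.2 in TGF-beta mouse 1 and 308 in mouse 2, and the nerve growth factor receptor gene Ngfr had 131 under TSLP, 162 and 409.6 in the TGF-beta mice and 563 in PBS skin. The secreted protein gene Spon2 had a signal of 283 under TSLP, 155 and 257 in the TGF-beta mice and 758 in PBS skin, and Hemgn, of red cell precursors, 277 under TSLP, 298 and 289.6 in the TGF-beta mice and 744 in PBS skin. Both Spon2 and Hemgn were highest in PBS outlet skin, while IL-13 skin had 499 and 412 and distal skin 455 and 76.3. All gene lists with at least 5 compared members are drawn together in the plot of list medians.

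**Figure D5:**
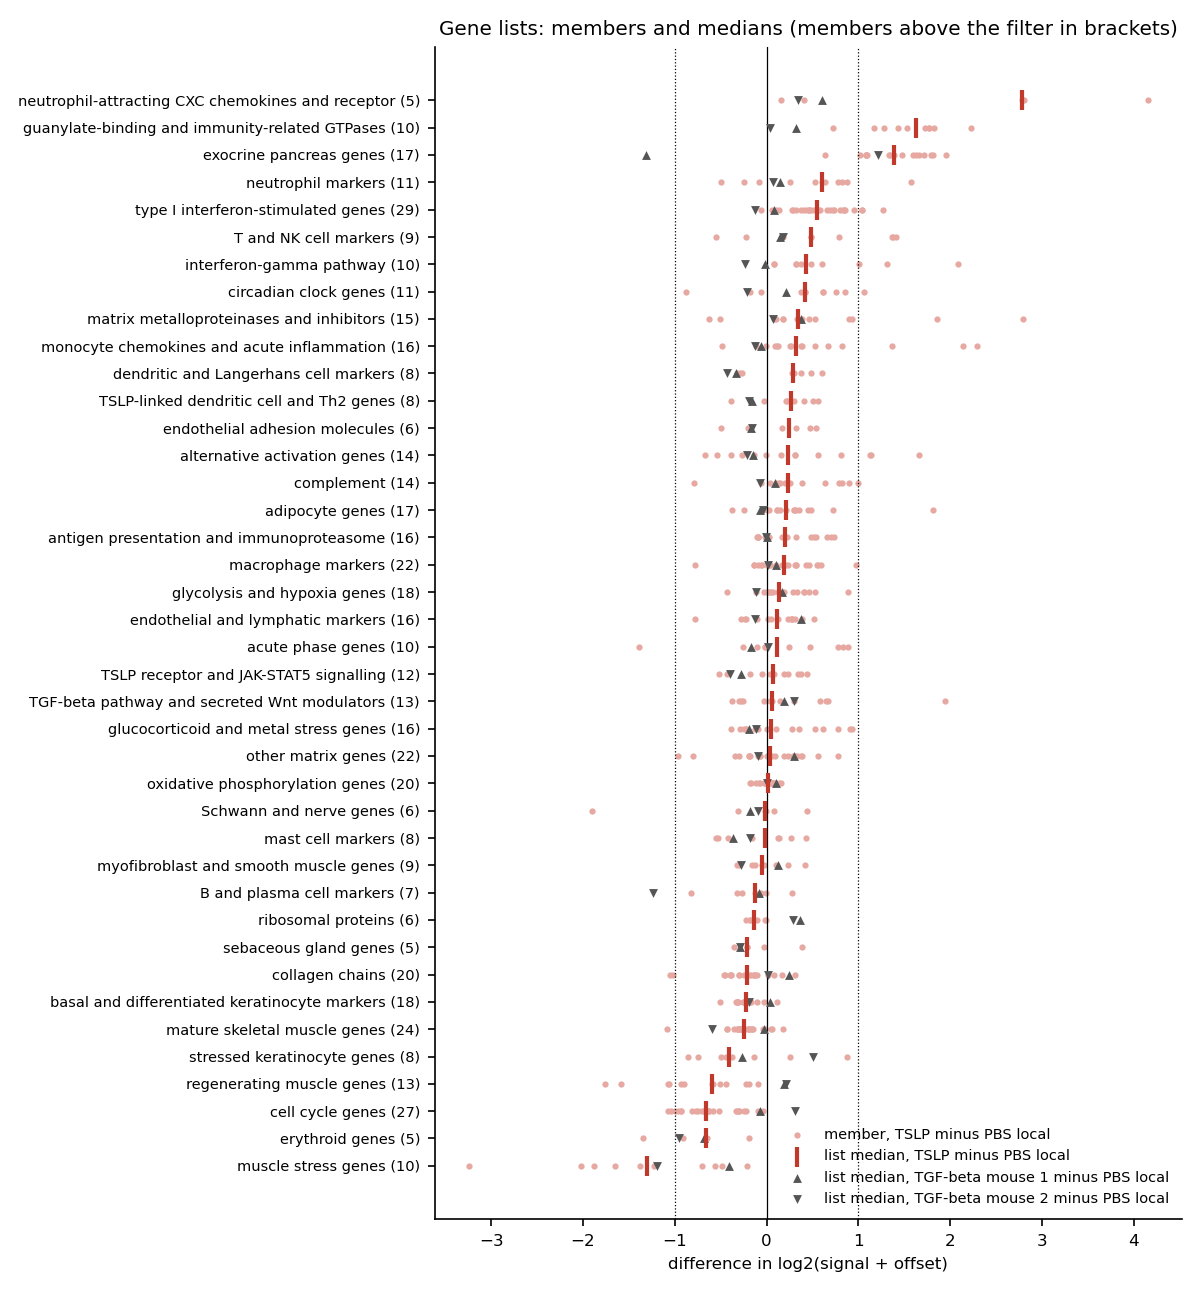
Differences in log2(signal + 27.4) between TSLP and PBS skin for the members (pale red points) of 40 gene lists with at least 5 compared members, whose number stands in brackets. Red bars are the list medians and dark triangles the medians of the same lists in TGF-beta mouse 1 (upward) and mouse 2 (downward), with dotted lines at 2-fold. Neutrophil chemokines, GTPases and pancreas genes have medians above 1, muscle stress genes have a median of -1.30, and 14 of the 40 medians lie below 0.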

How the data were processed

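RNA of 6 skin specimens was measured on 6 single-colour arrays. Per the submitters' processing notes, the authors made the deposited intensity values with MAS5. The sources used here state neither its version nor a genome build. The table holds 22690 probe sets. The 64 AFFX controls were left out, and the platform annotation ties 20380 of the rest to 1 gene, 691 to more than 1, and leaves 1555 unnamed here. Of these, 20351 took their symbol from RefSeq (assembly GRCm38.p6) by gene number. The probe set with the highest mean stood for a gene (4956 genes had more than 1). Arrays were scaled to 1 trimmed mean, leaving out 2% at each end, and 27.4 (the 25th percentile) was added before log2. The number of columns left unused was 0.

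Genes at or above 165 on either array were compared by size alone, at 2-fold. Named genes were the 25 highest and 15 lowest called, all TSLP pathway genes on the array, and in each list the called members or the 4 largest differences. Lists and members were chosen with earlier results of these data known. Some further genes were named after their values were seen. Of 806 list entries 689 were on the array and 515 passed the filter. limma 3.58.1 under R 4.3.3, tested on simulated data, served as an alternative, as did other offsets, filters, scalings and controls. Python 3.11.15, numpy 2.4.6, pandas 2.3.3 and matplotlib 3.10.9 were used. Precision is limited by the small number of arrays.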

Additional observations from a re-analysis of the deposited data

How the results depend on the processing

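No paired analysis was possible because TSLP and PBS skin have 1 array each. With the spread borrowed from the TGF-beta mice, limma called no gene higher or lower after Benjamini-Hochberg adjustment. Its 1 residual degree of freedom comes from those mice alone. The 76 higher genes became 42 with the offset at the median, 48 when both arrays had to reach the filter and 385 against distal PBS skin, and 52 to 96 otherwise. The 34 lower genes became 18 with the offset at the median, 59 against the mean of the PBS outlet and both TGF-beta arrays, and 107 against distal skin, and 26 to 46 otherwise. Of the 34, 12 were among those 59 and 5 among those 107, while of the 76 higher genes 62 were among the 385. The 23 genes of the stricter higher call became 11 with the offset at the median and 9 when both arrays had to reach the filter, and leaving out either TGF-beta array gave 35 to 41. The 6 lower ones became 2 with the offset at the median and 3 with the mean of all probe sets, and leaving out either TGF-beta array gave 10 to 11. Fewer arrays to exceed widen the call by construction. Of 77 named and called genes, 0 changed sign under quantile normalization, the mean of all probe sets or the 3-array control. Without s_at and x_at probe sets 76 of them were left, and 0 changed sign. Under another offset 0 did, but an offset cannot turn the sign between 2 arrays for the same probe set, so this is no check. Single other probe sets of Gm13889 (0.06), Cdca3 (0.21) and Slc15a2 (-0.18), all below the filter, had the opposite sign. The distal control also changes the body site. Against distal skin 14 did, Ankrd1 to 2.12, Xirp1 to 1.30, Gm13889 to 0.37, Alpk2 to 0.44, Myl4 to 1.28, Mybph to 0.38, Ankrd2 to 2.65, Hemgn to 1.55, Uchl1 to 1.40, Col8a1 to 2.57, Flnc to 1.48, Tnni1 to 3.01, Myf6 to 0.19 and Retnla to -2.05. The cause of these changes was not tested. List medians changed sign in 9 of 40 cases there, 3 against the 3-array mean, 1 under quantile normalization and 1 with the mean of all probe sets. Dim genes limit many calls, since 28 of the 76 higher genes had a PBS signal under the filter and 8 of the 34 lower ones below it under TSLP.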

Other observations

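Of 11 compared circadian clock genes 8 were above PBS skin, with a median of 0.42, and of 0.21 and -0.22 in TGF-beta mice 1 and 2. Per3, a clock repressor, had a signal of 641 under TSLP, 446 and 367 in TGF-beta mice 1 and 2, and 294 in PBS skin, and was the 1 member that was 2-fold higher. The clock output factor Dbp had a signal of 2417 under TSLP, 2015 and 1877 in the TGF-beta mice and 1325 in PBS skin. Arntl, the activator whose transcript cycles in the opposite phase, had a signal of 191 under TSLP, 209 and 201 in the TGF-beta mice and 373 in PBS skin. Among the outlet arrays given here, the PBS array alone was high for Arntl. Per1 differed by 0.62 (-0.22 and -0.28 in the TGF-beta mice) and Per2 by 0.75 (0.25 and -0.23). The sources used here do not give the hour at which each skin piece was taken.

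Complement genes leaned higher, 12 of 14 having a difference above 0. C1ra, a protease of the classical pathway, had a signal of 2663 under TSLP, 1612 and 1527 in TGF-beta mice 1 and 2, and 1413 in PBS skin. C2 had a signal of 673 under TSLP, 456 and 428 in the TGF-beta mice and 323 in PBS skin, just past 2-fold, and Cfb, of the alternative pathway, 3119.6 under TSLP, 2062 and 1671 in the TGF-beta mice and 1795 in PBS skin. Masp1, of the lectin pathway, went the other way, with 255 under TSLP, 239 and 316 in the TGF-beta mice and 463 in PBS skin. Fat genes were slightly higher in 14 of 17 cases, with the adipokine gene Adipoq at 5420.5 under TSLP, 4314 and 3474 in the TGF-beta mice, 7359 in distal skin and 3954 in PBS outlet skin. Fasn had 2550.3 under TSLP, 1176 and 1611 in the TGF-beta mice, 2679.5 in distal skin and 1813 in PBS outlet skin. Pfkfb3, which drives glycolysis, had a signal of 713 under TSLP, 474 and 481 in the TGF-beta mice and 373 in PBS skin, the largest difference among 18 glycolysis and hypoxia genes.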
